A study of Mus musculus with 18 samples.

Results

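In a gavage study of polycyclic aromatic hydrocarbons, 9 B cell receptor and B lineage genes were followed in lung RNA across the dose groups. These were the receptor's signalling chains Cd79a and Cd79b, the surface molecules Ms4a1 and Cd22, and the kinases Blk and Btk. The others were the adaptor Blnk, the lineage factor Pax5 and the Fc receptor-like protein Fcrla. All 9 were found through the RefSeq accession of each array probe. This gave 11 of the 55681 probes measured and 9 of the 20660 genes named. Btk and Pax5 each had 2 probes and the other 7 genes 1 probe each. Transcripts encoding Ms4a1 and Cd79b were higher in the medium-dose mice than in the vehicle mice (1.63-fold and 1.62-fold), and no gene of the set was called at the low or the high dose. Both calls were lost when the 6 mice of array slide 2 were left out.

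The lungs came from 18 male Muta™Mouse, a transgenic strain on a BALB/C-DBA/2 background that carries a lacZ reporter in every cell for scoring mutations. All mice, the controls included, carry it. They were about 12 weeks old and were gavaged daily for 28 days with olive oil alone (vehicle, n = 5) or with a mixture of benzo[a]pyrene, benz[a]anthracene, benzo[b]fluoranthene and chrysene in olive oil at 12.5 (low, n = 4), 25 (medium, n = 5) or 50 mg BaP equivalents/kg-bw/day (high, n = 4), and lungs were taken 72 h after the last dose. Each mouse had 1 array, on which its Cy5-labelled lung RNA was set against Cy3-labelled Universal Mouse Reference RNA, a pool from mouse cell lines. All values below are the log2 ratio of lung to reference RNA of 1 probe after loess normalization, or differences between such ratios. A ratio shows how a gene differed between mice and says nothing about its level relative to another gene. Unsorted lung tissue, from 1 lobe, was measured. A higher value may come from more B cells, from more RNA per B cell or from a change in other cells of the tissue. These cannot be told apart.

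B cells carry an antibody molecule on their surface that cannot signal by itself. Cd79a and Cd79b hold the signalling tails of the receptor. When antigen binds, Src family kinases such as Blk phosphorylate these tails, and Blnk then brings Btk and other enzymes together to raise calcium and activate transcription. Cd22 dampens this signal, and Pax5 is the factor that keeps a cell committed to the B lineage. In the lung, B cells are found in blood, in the interstitium and in lymphoid aggregates along the airways.

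Promoters of 6 of the 9 genes were in a RefSeq table of assembly GRCm38.p6 (Cd79a, Cd22, Btk, Blnk, Pax5 and Fcrla). Each holds 300 bases, 250 before a transcript start and 50 after it. For Cd22, Btk and Fcrla the whole window lay inside the gene and not at its outer end, which for Cd22 was chr7:30880342. The octamer ATGCAAAT, bound by Oct factors and their B cell coactivator Pou2af1, and the motif TCCCNNGGGA, bound by the early B cell factor Ebf1, were searched on both strands, and the E-box CAGCTG, bound by E2A proteins, was added to the search later. The octamer was in the Blnk promoter, 130 bases before the start and on the opposite strand, and in 1.74% of 32851 promoters of the same length. The Ebf1 motif was in the Cd22 promoter, 49 bases before the start, and in 0.904% of these promoters. The E-box letters CAGCTG were in 16.3% of all promoters and in none of the 6, and other E-box letters were not searched. No other match was found in the 6 windows. Only these exact letters were searched, so a binding site with other letters would be missed. The promoters of Blnk and Cd22 are shown because they hold a match and because the measured changes of these genes had opposite signs. That of Cd79a is shown as the receptor chain without a match to these exact letters. Capitals mark the matched bases, and the letters run 5′ to 3′ on the strand of the gene.
Blnk, chr19:40994172-40994471, minus strand: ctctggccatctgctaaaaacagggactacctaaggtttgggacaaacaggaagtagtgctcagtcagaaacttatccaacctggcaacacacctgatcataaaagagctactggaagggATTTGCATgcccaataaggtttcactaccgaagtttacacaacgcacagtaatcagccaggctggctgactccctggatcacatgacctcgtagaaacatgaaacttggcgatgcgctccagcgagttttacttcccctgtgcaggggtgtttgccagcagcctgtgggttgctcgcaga
Cd22, chr7:30878979-30879278, minus strand: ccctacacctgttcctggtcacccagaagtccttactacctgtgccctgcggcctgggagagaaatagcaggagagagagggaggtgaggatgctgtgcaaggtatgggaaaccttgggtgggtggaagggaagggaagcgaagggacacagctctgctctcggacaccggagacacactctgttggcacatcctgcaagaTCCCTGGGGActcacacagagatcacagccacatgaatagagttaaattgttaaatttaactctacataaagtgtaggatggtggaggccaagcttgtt
Cd79a, chr7:24897247-24897546, plus strand: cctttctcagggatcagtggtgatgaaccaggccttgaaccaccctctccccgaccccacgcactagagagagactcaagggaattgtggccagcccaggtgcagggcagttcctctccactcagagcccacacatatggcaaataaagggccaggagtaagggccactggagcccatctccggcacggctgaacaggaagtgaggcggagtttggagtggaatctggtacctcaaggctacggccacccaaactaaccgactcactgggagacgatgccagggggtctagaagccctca

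Signals differed in strength between probes. On its brightest probe each gene except Blk was well above background in Cy5 on all 18 arrays. Blk was well above background in 1 of 5 vehicle, 1 of 4 low-dose, 5 of 5 medium-dose and 4 of 4 high-dose mice. Its Cy5 signal lay between 84 and 146, against a local background of 71 to 87. The second probe of Pax5 was not well above background on any array, and that of Btk was on 7 arrays. In the Cy3 reference channel, Blk and Fcrla were not well above background on any array, Pax5 was on 1 and Cd79a on 5. No spot of the 11 probes was saturated or missing.

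Some arrays stood apart. The 18 mice were on 3 slides, each with mice of all 4 groups, and vehicle mice 3 and 4 shared slide 2. Over the 9 genes, the mean difference from the vehicle group was -0.17 in vehicle mouse 3 and -0.34 in vehicle mouse 4. It was 0.13, 0.33 and 0.04 in vehicle mice 1, 2 and 5. The 13 exposed mice lay between 0.05 and 0.52. The highest vehicle mouse therefore overlapped the exposed mice, and both vehicle mice of slide 2 lay below all others. The array column on a slide followed the dose group, so column and dose cannot be told apart.

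Ms4a1 encodes CD20, a four-pass membrane protein found on B cells and lost when they become plasma cells. Its log2 ratio was -0.02, 0.23, -0.67, -0.81 and -0.16 in vehicle mice 1 to 5. It was 0.11, 0.43, 0.17 and 0.57 in the low-dose mice, -0.06, 0.73, 0.46, 0.59 and 0.36 in the medium-dose mice and 0.33, 0.62, 0.40 and 0.01 in the high-dose mice. The vehicle range was exceeded by 4 of 5 medium-dose mice and 3 of 4 high-dose mice, and the fifth medium-dose mouse lay within it. The difference from vehicle was 0.61 ± 0.19 (SE) in the low, 0.70 ± 0.17 in the medium and 0.63 ± 0.19 in the high group. By limma, with Benjamini-Hochberg adjustment over all probes, the adjusted p was 0.292, 0.0258 and 0.0607. A call required an adjusted p of 0.05 or less and at least 1.5-fold, so Ms4a1 was called at the medium dose. All 3 estimates were past 1.5-fold, and no difference between doses passed the test.

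Cd79b, the Igβ chain, followed the same mice. Its log2 ratio was 0.63, 0.77, 0.13, -0.25 and 0.32 in the vehicle mice and 0.52, 1.12, 0.79 and 1.08 in the low-dose mice. It was 0.30, 1.28, 1.06, 1.34 and 1.1 in the medium-dose mice and 0.66, 1.06, 0.98 and 0.72 in the high-dose mice. Again 4 of 5 medium-dose mice lay above each vehicle mouse, while mouse 11 lay far below the other 4. The difference from vehicle was 0.56 ± 0.20 in the low group (adjusted p = 0.413, limma), 0.70 ± 0.19 in the medium group (adjusted p = 0.0419) and 0.54 ± 0.20 in the high group (adjusted p = 0.159). Cd79b was thus called at the medium dose.

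The partner chain Cd79a (Igα) was not called at any dose. Its log2 ratio spanned 0.58 to 1.53 in the vehicle mice, and all 4 high-dose mice lay inside that range, between 1.25 and 1.33. The difference was 0.29 in the low group (95% interval -0.05 to 0.63), 0.26 in the medium group (-0.06 to 0.58) and 0.17 in the high group (-0.17 to 0.51). These intervals hold both no change and, at the low dose, a change of 1.5-fold.

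**Figure D1:**
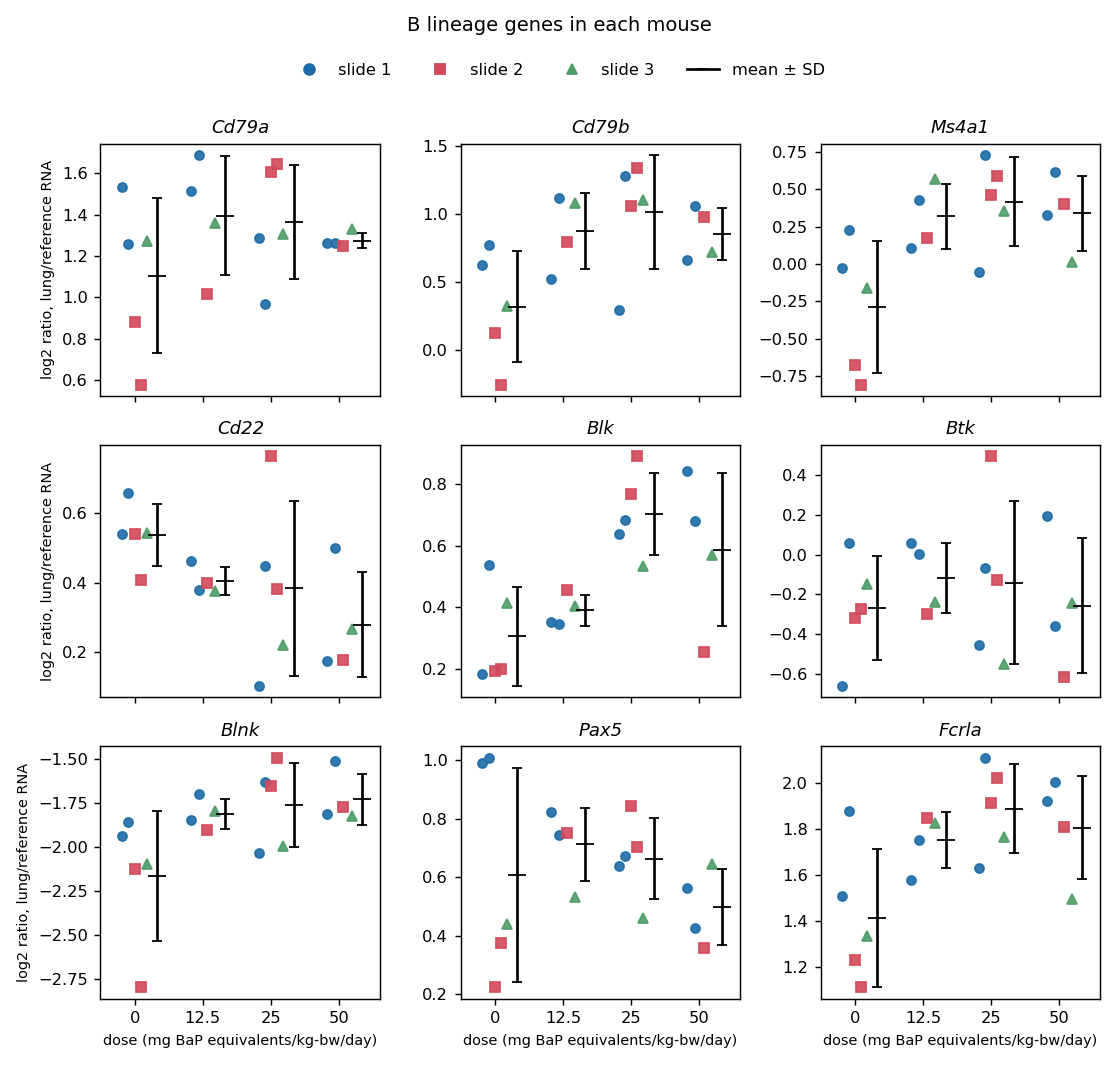
Log2 ratio of lung to reference RNA (y axis, a separate scale in each panel) in each of the 18 mice, by daily dose in mg BaP equivalents/kg-bw (x axis), for the brightest probe of each gene. Symbols give the slide and black bars the mean ± SD. The vehicle mice of slide 2 are the lowest of all mice for Ms4a1 and Cd79b.

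Among the 9 genes, 2 were called higher at the medium dose (Ms4a1 and Cd79b) and none lower. Over all probes, 0.278% were called higher, 0.447% lower and 0.726% in either direction. Of the 9 genes, 5 had an unadjusted p under 0.05 with a higher value, beside 7.79% of all probes. At the low dose 0 of the 9 genes were called, beside 0.0898% of all probes, and 4 had an unadjusted p under 0.05 with a higher value, beside 3.79% of all probes. At the high dose 0 were called, beside 1.2% of all probes (0.399% higher and 0.805% lower), while 5 had an unadjusted p under 0.05 with a higher value (7.87% of all probes) and 1, Cd22, with a lower value (7.85%). For the mean of the 3 doses, 2 genes were called higher, again Ms4a1 (0.65 ± 0.15, adjusted p = 0.0112, limma) and Cd79b (0.60 ± 0.16, adjusted p = 0.0290), beside 0.219% of all probes, and 5 had an unadjusted p under 0.05 with a higher value, beside 8.32%. The 4 comparisons share the 5 vehicle mice. The measured difference was above 0 for 8, 8 and 7 of the 9 genes at the low, medium and high dose, beside 51%, 51.3% and 50.8% of all probes. The median difference of the 9 genes was 0.29, 0.39 and 0.28, and 0.00 over all probes at each dose.

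Without the 1.5-fold limit, Blk and Fcrla joined the genes past the adjusted threshold at the medium dose, where 1.64% of all probes were higher by this rule. Blk, a Src family kinase found mainly in B cells, had log2 ratios of 0.19, 0.54, 0.20, 0.20 and 0.41 in the vehicle mice and 0.64, 0.68, 0.77, 0.89 and 0.53 in the medium-dose mice. The lowest medium-dose mouse lay just below the highest vehicle mouse. The low-dose mice lay between 0.35 and 0.46, all inside the vehicle range, and the high-dose mice between 0.26 and 0.84. The difference was 0.08, 0.39 and 0.28 at the 3 doses (adjusted p = 0.906, 0.0269 and 0.161, limma).

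Fcrla, an intracellular Fc receptor-like protein of B cells that binds immunoglobulin, had log2 ratios of 1.51, 1.88, 1.23, 1.11 and 1.33 in the vehicle mice and 1.63, 2.11, 1.91, 2.02 and 1.76 in the medium-dose mice. Above each vehicle mouse lay 3 of the 5 medium-dose mice. The difference was 0.34, 0.48 and 0.39 at the 3 doses (adjusted p = 0.498, 0.0390 and 0.115, limma). It stayed under 1.5-fold in this fit, but not under every alternative in processing, where the medium-dose difference ranged from 0.44 to 0.73.

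Blnk, the adaptor that couples the receptor to Btk, was the one gene whose 4 high-dose mice all lay above the 5 vehicle mice, beside 3.78% of all probes. Its log2 ratio was -1.81, -1.52, -1.77 and -1.82 in the high-dose mice and -1.94, -1.86, -2.13, -2.80 and -2.10 in the vehicle mice. The gap between the groups was narrow, and vehicle mouse 4 lay far below the other vehicle mice. The difference was 0.35, 0.40 and 0.43 at the 3 doses, and no adjusted p passed (0.531, 0.124 and 0.111, limma).

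Cd22, a sialic acid-binding inhibitor of the receptor, was the one gene with a negative difference at all 3 doses. Its log2 ratio was 0.54, 0.66, 0.54, 0.41 and 0.54 in the vehicle mice and 0.18, 0.50, 0.18 and 0.27 in the high-dose mice. Below each vehicle mouse lay 3 of the 4 high-dose mice, and the other lay within their range. The difference was -0.13, -0.15 and -0.26 at the 3 doses, with a 95% interval of -0.47 to -0.04 at the high dose and adjusted p = 0.811, 0.511 and 0.204 (limma).

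Btk, the Tec family kinase that acts after Blnk, and Pax5 showed no called difference. For the brighter probe of Btk the difference was 0.15, 0.13 and 0.01 at the 3 doses, with intervals that reached from -0.36 to 0.53. The dimmer probe gave 0.14, 0.17 and 0.22, so the probes differed in which dose was highest. Pax5 gave 0.11, 0.06 and -0.11 on its brighter probe, and vehicle mice 1 and 2 (0.99 and 1.01) lay above every exposed mouse. The adjusted p of these genes was 0.791 or more on the brighter probes.

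**Figure D2:**
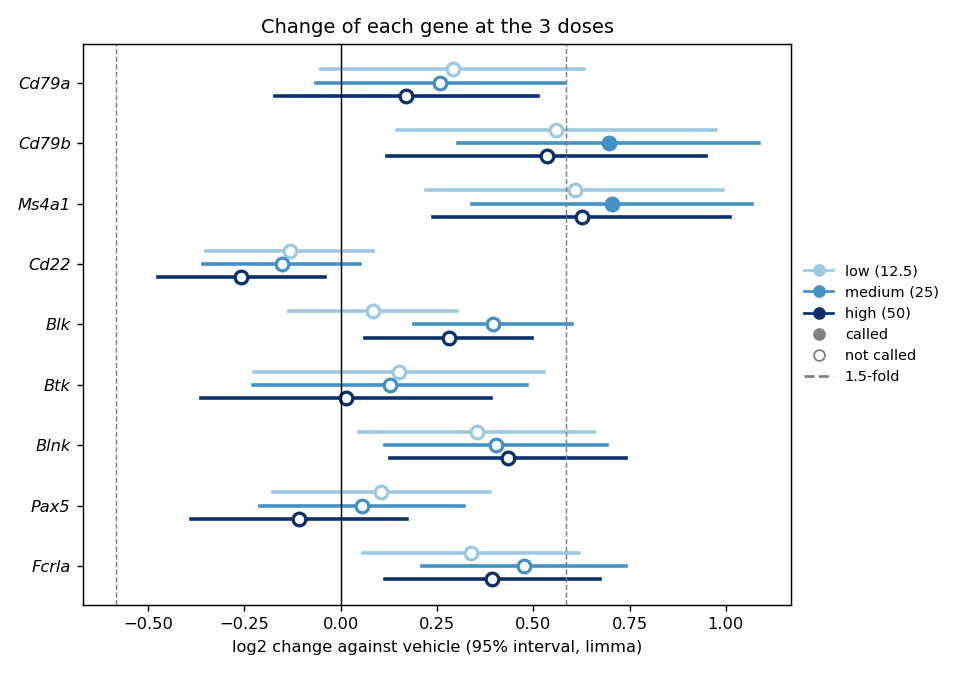
Difference from the vehicle group in log2 ratio (x axis) for each gene at the low, medium and high dose, with 95% intervals from limma. Filled points were called and dashed lines mark 1.5-fold. Ms4a1 and Cd79b at the medium dose are the filled points, and the points of Cd22 lie to the left of 0.

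No gene of the set was called between doses by limma, beside 0.0449% of all probes for high against low and 0% for the other two comparisons. Blk was the one gene whose groups did not overlap between doses, with all 5 medium-dose mice above all 4 low-dose mice, beside 0.821% of all probes. Its difference was 0.31 (adjusted p = 0.963, limma). From the medium to the high dose, 8 of the 9 measured differences were below 0, by at most 0.16. The exact permutation test over mice was run for each gene at each dose against vehicle, 27 tests in all. The lowest two-sided p was 0.0159, for Blk at the medium dose. After adjustment over the 27 tests the lowest value was 0.107, so none passed, in a design whose smallest possible p is 0.0079. A single test at that p could not pass after this adjustment, so no conclusion is drawn from the lack of a pass.

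Slide changed the size of these differences. Medium-dose mice minus the vehicle mice of the same slide gave 0.23, 1.27 and 0.52 for Ms4a1 on slides 1, 2 and 3, and 0.09, 1.26 and 0.78 for Cd79b. Both genes were higher on each slide, and the slide 2 value was the largest. High-dose minus vehicle mice gave 0.37, 1.14 and 0.18 for Ms4a1 and 0.16, 1.04 and 0.40 for Cd79b. Blnk (0.07, 0.89 and 0.11) and Fcrla (0.18, 0.80 and 0.43) had the same sign on each slide at the medium dose. Cd79a did not, with -0.27, 0.90 and 0.04. Cd22 was below 0 on each slide at the high dose, with -0.26, -0.30 and -0.28. Slide 3 held 1 mouse of each group.

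**Figure D3:**
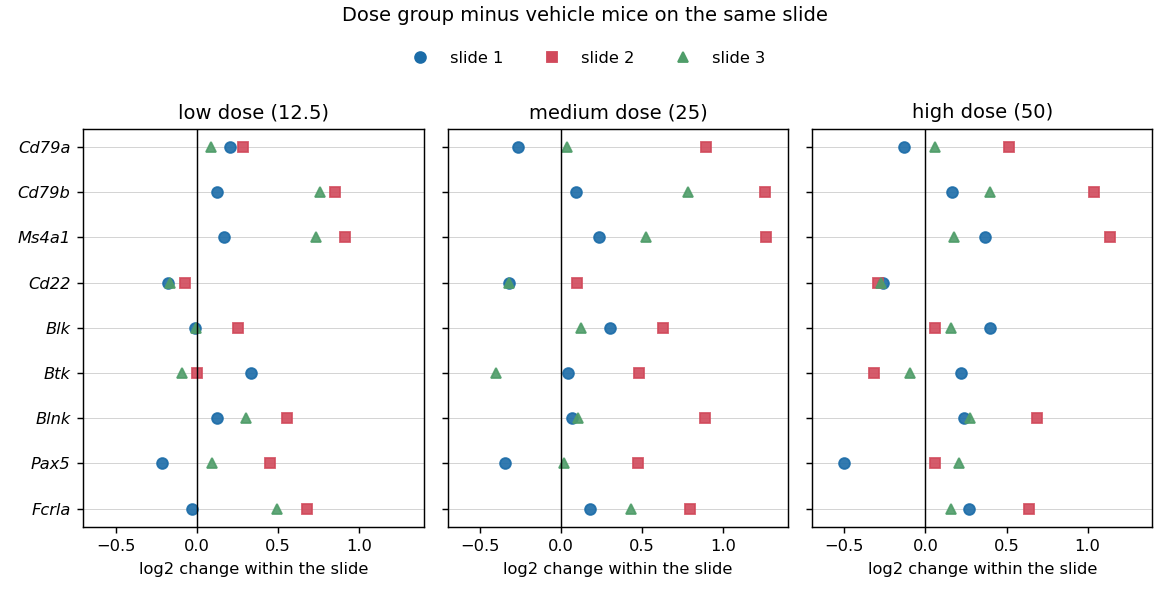
Mean log2 ratio of the dose group minus that of the vehicle mice on the same slide (x axis), for each gene at each dose. Symbols give the slide. For Ms4a1 and Cd79b the slide 2 points lie between 0.85 and 1.27, and the slide 1 points between 0.09 and 0.37.

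With slide as a block in the fit, Ms4a1 and Cd79b kept their medium-dose calls and those for the mean of the 3 doses. Without slide 2 neither was called, and the medium-dose difference was 0.33 for Ms4a1 (adjusted p = 0.491, limma) and 0.32 for Cd79b (adjusted p = 0.595). The median over the 9 genes was then 0.08 at the medium dose. Without slide 1 the count at the medium dose was 3, with Fcrla added, and without slide 3 it was 0. Leaving out vehicle mouse 3 or vehicle mouse 4 alone ended the calls at the medium dose and for the mean of the 3 doses, and leaving out medium mouse 12 or 14 ended those at the medium dose. Ms4a1 alone was called at the medium dose without vehicle mouse 5, low mouse 9 or medium mouse 13 or 15, and alone for the mean of the 3 doses without vehicle mouse 5, low mouse 7 or 10, medium mouse 12 or 14 or high mouse 17 or 18. Median centring, a fit of only the groups compared and the scanner software's ratio each ended the calls of both genes at the medium dose. Ms4a1 was also called at the high dose without vehicle mouse 2, medium mouse 11 or high mouse 20.

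The reference channel was checked in the same way, since all arrays carry the same reference RNA. In Cy3 alone, 0 of the 9 genes had an unadjusted p under 0.05 in any of the 3 single-dose comparisons. For the mean of the 3 doses 2 had one, and none was called by limma. The 2 were Cd79b, with a difference of -0.085, and Blnk, with 0.108. At the low, medium and high dose Cd79b was at -0.086, -0.079 and -0.091 in Cy3. Ms4a1 was at -0.059, -0.063 and -0.028. A lower Cy3 signal raises the ratio of lung to reference RNA. At each dose 4 of the 9 genes were above 0 in Cy3. The Cy3 differences of the 9 genes lay between -0.14 and 0.13 at the 3 doses. In Cy5 alone, the median difference was 0.22, 0.41 and 0.36. At the medium dose Ms4a1 was called there (0.61, adjusted p = 0.0470, limma) and Cd79b was not (0.60, adjusted p = 0.0724, limma).

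Other genes of the B lineage were read from a list of 24 surface molecules and transcription factors. At the medium dose 22 of the 24 had a difference above 0, beside 51.3% of all probes, with a median of 0.38. Called higher were 4, beside 0.278% of all probes. These were Fcer2a, the low-affinity IgE receptor (0.81 ± 0.16, adjusted p = 0.00559, limma), Pou2af1, the octamer coactivator (0.70 ± 0.17, adjusted p = 0.0227), H2-Ob, a class II antigen loading modulator (0.65 ± 0.17, adjusted p = 0.0373), and Cxcr5, the receptor that guides B cells to follicles (0.64 ± 0.18, adjusted p = 0.0463). At the high dose 22 of 24 were above 0, beside 50.8% of all probes, with a median of 0.30. Cxcr5 (0.72) and Pou2af1 (0.68) were called, beside 0.399% of all probes called higher. At the low dose 21 were above 0, beside 51% of all probes, with a median of 0.28 and no call by limma. An unadjusted p under 0.05 with a higher value was found for 10, beside 3.79% of all probes. For the mean of the 3 doses 2 of the 24 were called higher, beside 0.219% of all probes. The complement receptor Cr2 was among them (0.76, adjusted p = 0.0401, limma). Without slide 2, none of the 24 was called at any dose, 16 were above 0 at the medium dose and the median was 0.17. Without vehicle mouse 3, or without vehicle mouse 4, limma called 1 for the medium group and 0 for the high group.

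Genes of antibody-secreting cells were mixed. Of 12 genes listed, 8 had a probe, and 5 of these lay above 0 at the medium dose. An unadjusted p under 0.05 with a higher value was found for 1 of them. Called lower at this dose were 2, beside 0.447% of all probes. These were Jchain, which joins the chains of secreted IgM and IgA (-0.66 ± 0.13, adjusted p = 0.00679, limma), and Xbp1, a factor of the secretory pathway that many cell types express (-0.63 ± 0.10, adjusted p = 0.000612). Jchain was called lower at the high dose too (-0.69), beside 0.805% of all probes. The median over the 8 genes was -0.04, 0.07 and 0.02 at the 3 doses, and Mzb1, a chaperone of plasma cells, was at 0.01, 0.04 and -0.04.

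Of the 19 enzymes and factors that act after the receptor, 1 was called higher and 1 lower at the medium dose. Over all probes, 0.278% were called higher and 0.447% lower. Rasgrp3, which activates Ras after B cell receptor engagement and is also found in endothelium, was at 0.43, 0.72 and 0.95 (adjusted p = 0.366, 0.00400 and 0.000403, limma). Nfatc1, a calcium-dependent transcription factor, was at -0.61 at the medium dose (adjusted p = 0.00343). The median of the 19 was 0.04, 0.14 and 0.05. None of 10 brakes of the receptor was called by limma. Their medians were 0.03, 0.10 and 0.08, and 0, 3 and 2 of them had an unadjusted p under 0.05 with a higher value. The shares of all probes were 3.79%, 7.79% and 7.87%. Of 8 measured genes for B cell attraction and survival, Cxcl13, the ligand of Cxcr5, was called lower at the medium dose (-0.63 ± 0.15, adjusted p = 0.0224). Cxcl13 was not among the genes well above background in Cy5 on all arrays, which limits this call. Its receptor, called higher, was among them. The other 7 were not called, and 0.447% of all probes were called lower at the medium dose.

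Markers of other cells were read beside these. None of 13 T cell markers was called by limma, with medians of 0.12, 0.16 and -0.06. Of 10 natural killer and cytotoxic cell markers, 9 had an unadjusted p under 0.05 with a lower value at the high dose, beside 7.85% of all probes. The median was -0.45 and Gzma was called (-2.25), beside 0.805% of all probes called lower. Their summed Cy5 signal ranged from 4831 to 10644 in the vehicle mice and from 2299 to 3455 in the high-dose mice. Over the 9 B lineage genes this sum ranged from 6284 to 11196 and from 10154 to 13282. It mostly reflects Cd79b, Blnk and Ms4a1, whose unnormalized Cy5 signal reached 9831, 3925 and 2771. No other gene of the 9 went above 515. The summed signal of the natural killer markers was thus lower in each high-dose mouse than in any vehicle mouse, and the part of these cells in the result was not tested. No gene was called by limma for any dose against vehicle among the alveolar macrophage, neutrophil, plasmacytoid dendritic, thymus and lymph node stroma or red cell markers, whose medians at the medium dose were 0.17, 0.16, -0.04, -0.02 and -0.05. Of 9 lung tissue markers, Pecam1, an endothelial adhesion molecule, was called higher at the medium (0.69) and high dose (0.74), beside 0.278% and 0.399% of all probes. The median of the 9 was -0.24 at the medium dose.

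**Figure D4:**
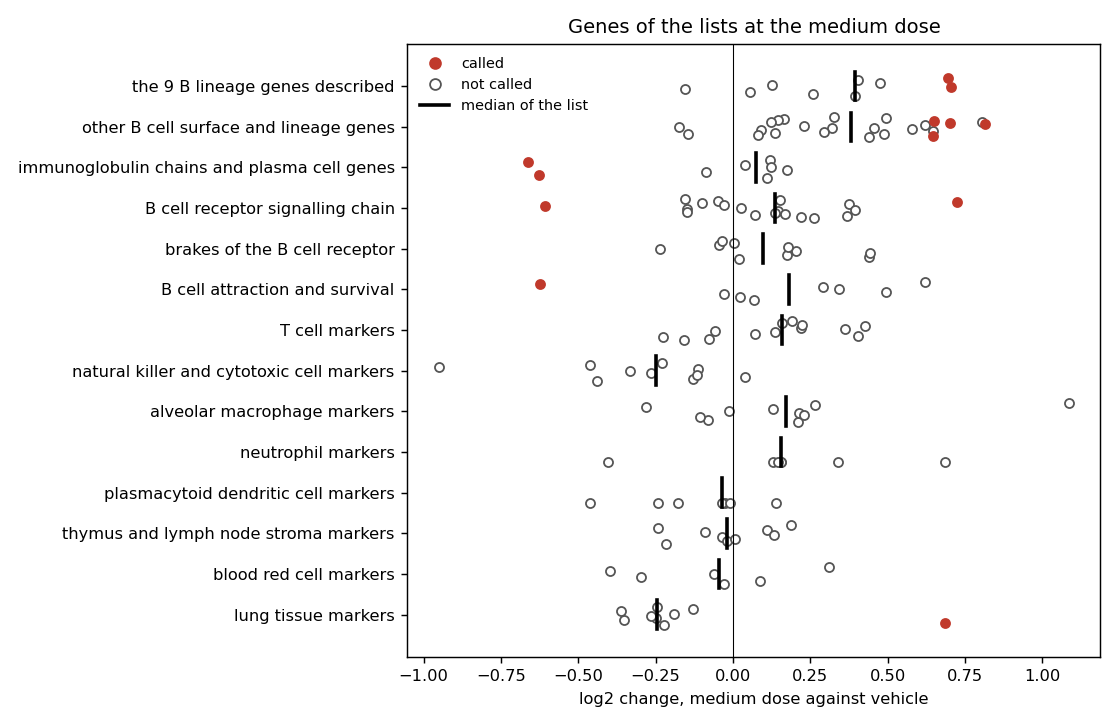
Difference between medium-dose and vehicle mice in log2 ratio (x axis) for each gene of the lists, with 1 point per gene. Red points were called and black bars are list medians. The medians of the 9 genes (0.39) and of the other B lineage genes (0.38) lie to the right of 0, and Jchain and Xbp1 are the red points on the left in the row of plasma cell genes.

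The genes also varied together from mouse to mouse within groups. After the mean of each dose group was subtracted, the 36 pairs of the 9 genes had Pearson's r between 0.05 and 0.91 over 18 arrays, with a median of 0.46. Cd79b and Ms4a1 formed the closest pair (0.91), followed by Ms4a1 and Fcrla (0.89), while Cd79b and Btk were least alike (0.05). Cd22 had r = 0.64 with the mean of the set within groups and 0.11 without subtracting the group means. That mean includes Cd22 itself, so part of each r is built in. These values describe 18 arrays whose genes share a hybridization, a slide and the normalization.

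Among 13424 genes well above background on all arrays, the 10 most like the mean of the 9 genes included Fcmr (0.88), Pou2af1 (0.85), Dennd1c (0.85), Blnk (0.85), Bcl11a (0.84), Ralgps2 (0.84), Ly6d (0.83), Bank1 (0.83) and Prkcb (0.83). Blnk is itself one of the 9. Of the other B lineage genes, 22 were among those ranked, and 15 of these were in the top 100, where r was 0.64 or more. Of the markers of other cells, Irf8 from the plasmacytoid dendritic list was in the top 100 (rank 66, r = 0.68). The T cell kinase Lck stood just outside, at rank 107 (r = 0.64). Medians here cover only the genes of a list that were ranked. The median r was 0.72 over the other B lineage genes, 0.40 over 9 lung tissue markers and 0.37 over 5 natural killer markers. It was 0.35 over 5 red cell, 0.33 over 6 plasmacytoid dendritic and 0.32 over 11 T cell markers. Over 5 neutrophil markers it was 0.11, and over 3 thymus and lymph node stroma markers -0.18. The 10 alveolar macrophage markers lay lowest, with a median r of -0.42, beside 0.01 over all genes ranked. The likeness was thus not limited to B lineage genes.

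**Figure D5:**
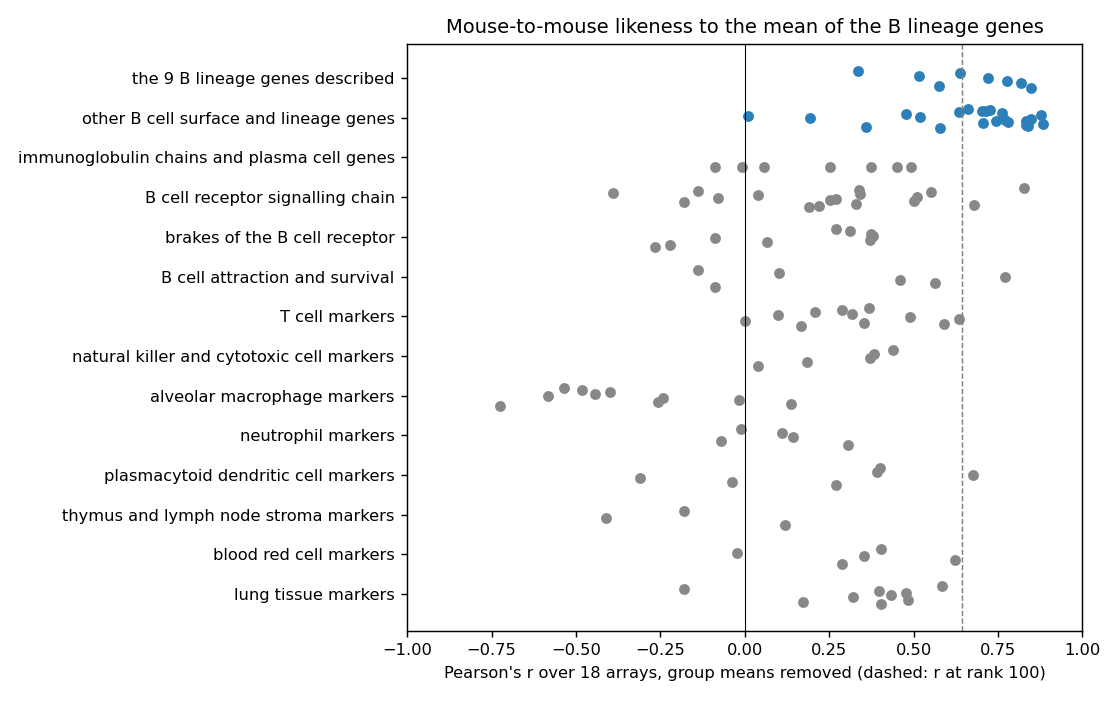
Pearson's r over 18 arrays between each gene and the mean of the 9 B lineage genes, after subtraction of the dose group means (x axis), by list. Each point is 1 gene that was well above background on all arrays, so Blk is not shown, and the dashed line is r at rank 100 (0.64). Most blue points of the other B lineage genes lie to the right of the dashed line, and most alveolar macrophage markers to the left of 0.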

How the data were processed

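Lung RNA of 18 mice was measured, 1 two-colour Agilent array per mouse. For each array the authors deposited scanner output (Feature Extraction 11.0.1.1, per the file headers) with median signal intensities of both channels, neither background-subtracted nor normalized, and the software's own log10 ratio, which is background-subtracted and dye-normalized. A table of normalized log2 ratios was deposited as well.

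Log2 ratios of Cy5 over Cy3 were computed here from the median intensities without background subtraction and normalized by loess within arrays (R 4.3.3, limma 3.58.1). Control spots and outlier spots (215 to 307 per array) had no weight, spots of a probe were averaged, and 86 probes lacked at least 1 value. One limma model (lmFit and eBayes) over 55681 probes held all 4 groups, with Benjamini-Hochberg adjustment within a comparison. The study's MAANOVA test was not run and limma stands in for it. A call needs an adjusted p of 0.05 or less and at least 1.5-fold. Nothing in the labels says that mice of a group shared a litter or cage. Accessions were named through a RefSeq table (27235 probes), and the brightest probe stands for a gene.

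Genes were named by a rule: the 9 genes, list genes called at a dose or among the 4 of a list with the largest medium-dose change at an unadjusted p under 0.05, and the 10 most alike. Mzb1 was named after its values were seen. One gene that the rule names is not reported here. The genes, lists and tests were chosen with earlier results of these data known. The alternatives were normexp (offset 50), the scanner software's ratio, the authors' table, median centring, scale and Aquantile normalization, Cy5 alone, slide as a block, a filter on dim probes, the mean of all probes, an intensity trend, the groups compared alone, no fold limit and each mouse left out. Leaving out each slide, and the E-box search, were added after the data were seen. The fit was tested on simulated data. In Cy5, 51.5% to 61.0% of probes were well above background. Precision is limited by the number of arrays.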

Additional observations from a re-analysis of the deposited data

Results flagged for a closer look

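In groups of 4 or 5 mice, 1 mouse was set apart when its gap to the nearest other mouse, as a share of the range of its group, exceeded Dixon's 95% critical value for that number of mice. Of 36 groups (9 genes in 4 dose groups), 4 held such a mouse, and chance marks about 1 group in 20. Blnk had the lowest vehicle mouse, mouse 4, at -2.80, with the next vehicle mouse at -2.13. That mouse was also the lowest vehicle mouse for Ms4a1, Cd79b, Cd79a, Cd22 and Fcrla. Cd79b had the lowest medium-dose mouse, mouse 11, at 0.30, with the next at 1.06. Blnk had the highest high-dose mouse, mouse 17, at -1.52, with the next at -1.77. Cd79a had the highest high-dose mouse, mouse 20, at 1.33, with the next at 1.26, in a group with an SD of 0.04.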

How the results depend on the processing

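At the medium dose the count of the 9 genes called was 2. It was 0 with median centring, 0 with only the groups compared, 1 with the scanner software's ratio, 1 with Cy5 alone (Ms4a1) and 4 with no fold limit. Over all probes, 0.726% were called in the main fit, 0.0575% with median centring and 1.25% with the scanner software's ratio. With no fold limit, 1.64% passed with a higher value. The call under the scanner software's ratio was Blk, which was well above background in 1 of 5 vehicle mice, and neither Ms4a1 nor Cd79b was called there. For the mean of the 3 doses the count of 2 became 0 with median centring, 0 with Cy5 alone and 1 (Ms4a1) with the scanner software's ratio. Over all probes, 0.124% were called for this mean with median centring and 1.27% with the scanner software's ratio. At the high dose the count became 1 with only probes well above background, where 2.34% of 29496 probes were called. The cause was not tested. Under median centring 32 probes were called at the medium dose in all, against 404, and the Cd79b difference was 0.83 (adjusted p = 0.716, limma). When single mice were left out, the counts ranged from 0 to 0 at the low, 0 to 3 at the medium and 0 to 1 at the high dose, and from 0 to 2 for the mean of the 3. Vehicle mice 3 and 4 and medium mice 12 and 14 each brought the medium count to 0. The median difference ranged from 0.16 to 0.36, 0.25 to 0.45 and 0.20 to 0.39 at the 3 doses. The scanner software's ratio gave a median of 0.53 at the low dose and 0.44 for the mean of the 3 doses.

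Without slide 2 the count was 0 at the medium dose and 0 for the mean of the 3 doses, and without slide 3 it was 0 and 1. The medium-dose median was 0.61 without slide 1 and 0.080 without slide 2. Signs turned for small differences. Without slide 2, Cd79a was at -0.17 (medium), -0.0703 (high) and -0.023 (mean of the 3 doses), Blk at -0.00968 (low), Btk at -0.11 (medium), and Pax5 at -0.11 (low), -0.22 (medium) and -0.20 (mean). Without slide 1, Btk was at -0.021 (low), -0.18 (high) and -0.0063 (mean) and Pax5 at 0.16 (high). Without slide 3, Pax5 was at -0.00372 (mean). Btk at the high dose was at -0.0087 under scale normalization, Pax5 at 0.12 at the high dose with the scanner software's ratio and at -0.012 for the mean of the 3 doses with Cy5 alone. With 1 mouse left out, Btk ranged from -0.14 to 0.13 at the high dose, from -0.031 to 0.23 at the medium dose and from -0.0010 to 0.18 for the mean, and Pax5 from -0.040 to 0.16 at the medium dose and from -0.078 to 0.12 for the mean. The signs of Ms4a1, Cd79b, Blnk, Fcrla and Cd22 were kept under every setting run. No paired analysis was possible because the mouse numbers are not shared between groups. Signal over background limits Blk most, since it was well above background in Cy5 in 2 of the 9 vehicle and low-dose mice. Over 13 alternatives with all mice, the medium-dose difference ranged from 0.36 to 1.73 for Blk and from 0.44 to 0.73 for Fcrla. For Cd79a at the low dose the range was 0.21 to 0.88. The main ratios had no background subtraction, and the part of that choice in these ranges was not tested.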
